A study of Homo sapiens with 32 samples.

Results

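Aminoacyl-tRNA synthetases join each amino acid to its transfer RNA, the step that supplies charged tRNA to the ribosome. The 36 genes described here are the synthetase genes of a given list, out of 19970 protein-coding genes of GENCODE 44 on chromosomes 1 to 22 and X. By the ending of the symbol, 19 were placed in a cytosolic set (1, A or B) and 16 in a mitochondrial set (2), and TARS3, a further threonyl-tRNA synthetase, was in neither. The list does not hold every synthetase gene. The rule uses no measured value, but the list was proposed with earlier results of these data known.

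The samples were from HEK293T, an established human embryonic kidney line, in a clone named HEK_CloneZD29 whose ZNF143 protein carries an inducible dTAG degron. That tag was present in all groups, untreated ones included, and the line is 1 clone. Each antibody was used on untreated cells and on cells exposed for 30 minutes to 50 nM dTAGV-1, the molecule that sends the tagged protein to the proteasome. Chromatin immunoprecipitation with sequencing (ChIP-seq) used antibodies to the HA epitope on ZNF143 (2 untreated and 2 treated samples), SP1 (4 and 4), NRF1, written Nrf1 in the labels (4 and 4), and YY1 (4 and 4), with a mock precipitation (2 and 2), 32 samples in 10 groups.

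The values used were 4 lists of peak summits, 1 per antibody, with a 1-bp position and a score for each summit. The score, column 5 of a list, is a −log10 significance value from the peak caller, of either p or q. The ZNF143 list held 16600 summits, the SP1 list 126275, the NRF1 list 39194 and the YY1 list 106658. The labels name the same SP1 list, and the same ZNF143 list, for untreated and treated samples, and name no list for the NRF1 and YY1 samples, whose antibody was read from the lists themselves. The lists hold no value per sample, so untreated and treated cells could not be compared here, no summit has a replicate error, and read depth is unknown. Scores grow with depth and were compared only within a list, often as a rank, the percentage of that list's summits with a score at or below it.

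Human cells keep, for most amino acids, separate nuclear genes for the cytosolic and the mitochondrial enzyme of an amino acid, and the mitochondrial enzymes are made in the cytosol and imported. GARS1 and KARS1 are exceptions, since each of them encodes the enzyme for both compartments, and FARSA and FARSB encode the 2 subunits of the cytosolic phenylalanyl enzyme. Several cytosolic synthetases sit in a large multi-synthetase complex. ZNF143 is a zinc finger activator that binds a long promoter element containing CCCAGNATG. SP1 binds GC boxes such as GGGGCGGG, NRF1 (nuclear respiratory factor 1) binds a palindrome around CGCATGCG and is best known for nuclear genes of mitochondrial proteins, and YY1 binds AANATGGCG near transcription starts. Many cytosolic synthetase genes are also known targets of ATF4, the amino acid stress factor, which binds the amino acid response element TGATGCAA and was not measured here.

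The sequences below show which letters stood under the synthetase summits. Each is 30 bases of hg38 in the 5′ to 3′ direction of the strand that carries the match, with the match in capitals. The ZNF143 letters with no mismatch lay within 50 bp of the highest ZNF143 summit at 1 of 24 members with such a summit, CARS1. At 3 further members, LARS1, YARS2 and KARS1, they were there with 1 mismatch, and at MARS1 they were there with 1 mismatch when the summit near the canonical transcript start was taken. Those with at most 1 mismatch were 16.7% of members with a ZNF143 summit, beside 18.5% of all genes with one. The sequences with a mismatch, and all those of the other factors, were chosen for printing after their values were seen.
CARS1, ZNF143, chr11:3057514-3057543, minus strand: aactacagctCCCAGCATGctccgggccgg
LARS1, 1 mismatch, chr5:146182705-146182734, plus strand: cgagcagacaCCCAGCAGGcgctaactgac
YARS2, 1 mismatch, chr12:32755884-32755913, minus strand: cctctgcaatCCCAGCATTcccttcgtgcc
KARS1, 1 mismatch, chr16:75648456-75648485, minus strand: cggcgcgtccCCCAGCAGGtacttatgctc
MARS1, 1 mismatch, chr12:57487931-57487960, minus strand: gactatttctCCCATCATGcaacgctaaga

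The NRF1 palindrome, read on both strands, lay within 50 bp of the highest NRF1 summit at 3 of 30 members. All of them, MARS2, CARS2 and VARS2, were mitochondrial genes without a ZNF143 summit. At SARS1 and FARSB, which had the highest NRF1 scores of the cytosolic set, the letters were present with 1 mismatch.
MARS2, NRF1, chr2:197705332-197705361, plus strand: cgacccggctgCGCATGCGcctctcacacg
CARS2, NRF1, chr13:110713632-110713661, plus strand: gggggccggggCGCATGCGcgctgcgcagc
VARS2, NRF1, chr6:30914205-30914234, plus strand: gccagctgctgCGCATGCGccggccggggc
SARS1, 1 mismatch, chr1:109213873-109213902, plus strand: ggctccagctgCGCCTGCGcaggaagggcg
FARSB, 1 mismatch, chr2:222656081-222656110, plus strand: cgaactcactgCGCCTGCGcagcgagctga

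The YY1 letters lay within 50 bp of the highest YY1 summit at 3 of 32 members, LARS2, FARSA and NARS1, which had the highest, the second and the fourth highest YY1 score of all members. At the canonical start of KARS1 the match contains the annotated start codon of the protein.
LARS2, YY1, chr3:45388577-45388606, plus strand: ctgttttgacAACATGGCGgcgcccatggt
FARSA, YY1, chr19:12933769-12933798, minus strand: agacacattcAAGATGGCGgtacacactcc
NARS1, YY1, chr18:57621899-57621928, minus strand: gccctcaccaAAGATGGCGgccccggcgcc
KARS1, YY1, chr16:75647623-75647652, minus strand: gccctccgggAAGATGGCGgccgtgcaggc

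The SP1 letters were the most frequent, at 10 of 33 members. The matches at the 3 highest SP1 scores among them, IARS2, FARS2 and WARS1, are shown.
IARS2, SP1, chr1:220093980-220094009, minus strand: gcagccgccggGGGGCGGGctcagattcac
FARS2, SP1, chr6:5260918-5260947, plus strand: gcgccgcttcgGGGGCGGGcgcaggcaggg
WARS1, SP1, chr14:100376373-100376402, plus strand: ctgttcgcgcgGGGGCGGGgcagaggccgc

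Over all protein-coding genes with a summit of the list, the share with the factor's own letters within 50 bp was 2.93% (ZNF143), 18.7% (SP1), 5.84% (NRF1) and 6.56% (YY1). Among the members it was 4.17%, 30.3%, 10% and 9.38% in the same order. The letters GCATG occur in both the ZNF143 and the NRF1 motif, and ATG in those of ZNF143, NRF1 and YY1, so a single stretch can match more than 1 of them in part. In all genes the letters of 3 factors were more frequent in the 10% of genes with the highest scores than in the others. The NRF1 palindrome was near 33.2% of the summits there, against 2.80%, the YY1 letters near 41.0% against 2.73%, and the ZNF143 letters near 11.4% against 1.99%. The SP1 letters were near 18.98% and 18.6%, with no such gap. In that highest 10% stood 1 member in the ZNF143 list, 6 in the SP1 list, 4 in the NRF1 list and 10 in the YY1 list.

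Summits of all 4 lists lay within 500 bp of the annotated gene 5′ end at 21 of the 36 synthetase genes, against 28.1% of all protein-coding genes. ZNF143 summits were at 24 members (66.7%, 95% Wilson interval 50.3 to 79.8), against 31.7% of all genes. SP1 summits were at 33 (91.7%, 78.2 to 97.1), against 59.1%, and YY1 summits at 32 (88.9%, 74.7 to 95.6), against 57.8%. NRF1 summits were at 30 members (83.3%, 68.1 to 92.1), against 48.3%. The intervals cover counting error over genes only. Genes are not replicates of the experiment, the window shares a few summits between neighbouring genes, and no test was run on these counts.

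The members fell into few patterns. Besides the 21 with all 4 lists, 8 had SP1, NRF1 and YY1 without ZNF143, and 3, CARS1, KARS1 and QARS1, had ZNF143, SP1 and YY1 without NRF1. VARS1 had only an SP1 summit, VARS2 had only an NRF1 summit, and GARS1 and MARS1 had none, as 37.3% of all genes. No member had exactly 2 lists. Over all 19970 genes, 9091 had SP1, NRF1 and YY1 summits, and 5620 of these had ZNF143 too. The shares of all genes with the pattern lacking only NRF1, with 1 list or with exactly 2 lists were not counted. Of the 29 members with SP1, NRF1 and YY1 summits, 21 had a ZNF143 summit too (72.4%, 54.3 to 85.3), beside 61.8% of the 9091 genes with those 3. Read against genes of that kind, the share of members with ZNF143 lay near the background.

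**Figure D1:**
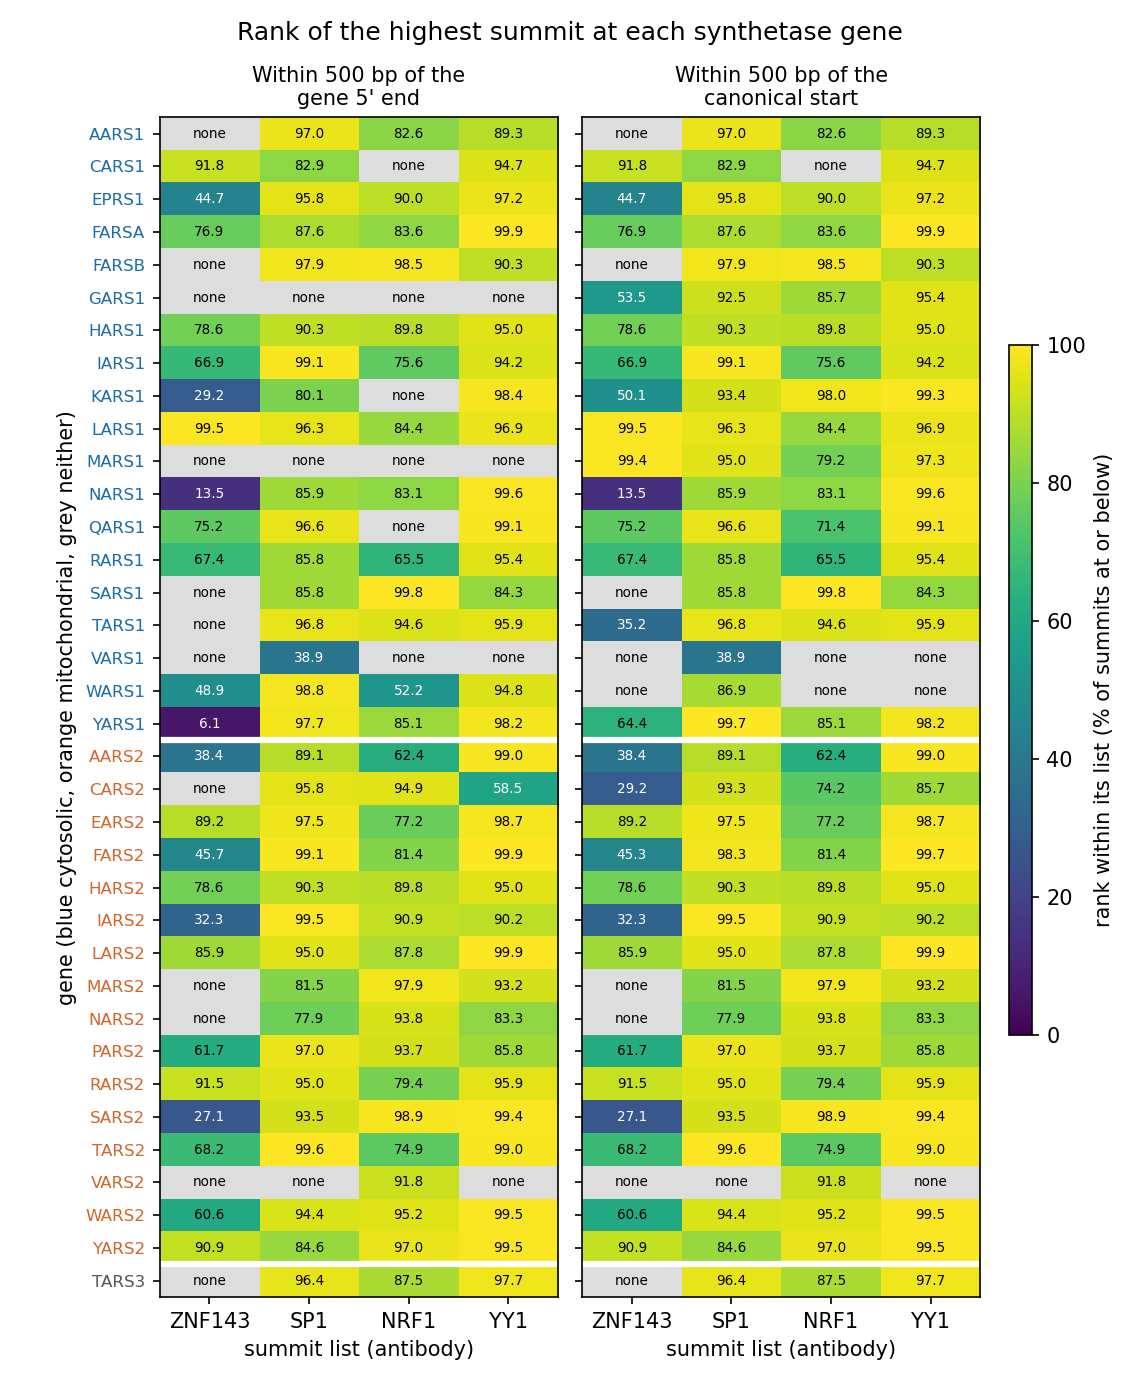
Rank of the highest summit within 500 bp of each synthetase gene (rows) in each list (columns), as the percentage of that list's summits with a score at or below it, for the gene 5′ end on the left and the canonical transcript start on the right. Grey cells have no summit. ZNF143 is the column with the most empty cells and the widest spread, and GARS1 and MARS1 are empty on the left and filled on the right.

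ZNF143 scores of the members ran from 2.74 to 21734, in a list that runs from 2.00 to 65042. The highest was at LARS1, the cytosolic leucyl enzyme, with a score of 21734 and a rank of 99.5%, 44 bp upstream of the 5′ end. CARS1 (cysteine, 2743), RARS2 (arginine, 2593), YARS2 (tyrosine, 2183), EARS2 (glutamate, 1370) and LARS2 (leucine, 533) followed, 4 of these 5 being mitochondrial enzymes. At the gene 5′ end LARS1 thus stood far above the next member, while at the canonical start MARS1 came close to it with 19340. At the gene 5′ end leucine was the only amino acid with both genes among these 6.

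Next in the order stood the histidyl pair. HARS1 and HARS2, whose 5′ ends lie 107 bp apart on opposite strands, shared 1 ZNF143 summit with a score of 106.4, and they shared the highest summit of every other list as well, so they are 1 observation in each. FARSA (82.7) and QARS1 (66.3, glutamine) came after them. The lowest ZNF143 scores were at YARS1 (2.74), NARS1 (asparagine, 3.76), SARS2 (serine, 6.08), KARS1 (lysine, 6.27) and IARS2 (isoleucine, 6.95). The list begins just above 2, so YARS1 lay next to the limit of calling, with a rank of 6.05%.

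The median ZNF143 score of the 24 members was 32.2, with a median rank of 67.1%, beside 23.6 and 62.3% over all genes with a ZNF143 summit. Synthetase genes thus held a ZNF143 summit more often than all genes while the summits' ranks were near those of other genes. YY1 and SP1 ranks lay higher: the median of the members was 96.4% for YY1, beside 89.8% over all genes with a summit, and 95.02% for SP1, beside 88.7%. For NRF1 it was 88.8%, beside 82.0%.

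No ZNF143 summit was found at 12 members. They were AARS1, FARSB, GARS1, MARS1, SARS1, TARS1 and VARS1 of the cytosolic set, CARS2, MARS2, NARS2 and VARS2 of the mitochondrial set, and TARS3. For TARS1 the nearest summit stood just outside the window, 539 bp downstream with a score of 7.64, and for CARS2 it stood 653 bp downstream with a score of 1283. For AARS1, FARSB, MARS2 and NARS2 the nearest one was 37715 to 179077 bp away. Peak numbers in the ZNF143 list run without a break across each of these 12 places.

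SP1 was present at nearly all members. The highest SP1 scores were at TARS2 (2694), IARS2 (2220), IARS1 (1663), FARS2 (1608) and WARS1 (1390), so both isoleucyl genes were among the 5. VARS1 had the lowest, 9.14, at −271 bp, upstream of its 5′ end, and no other member with an SP1 summit was under 69.9. GARS1, MARS1 and VARS2 had none.

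NRF1 had its highest scores at the seryl genes. SARS1, the cytosolic seryl enzyme, had the highest NRF1 score, 17133 with a rank of 99.8%, and SARS2, the mitochondrial seryl enzyme, had the second, 9779. FARSB (8451), MARS2 (7109) and YARS2 (5561) followed. The lowest were at WARS1 (6.57), AARS2 (9.30) and RARS1 (10.7). The 6 members without an NRF1 summit, CARS1, GARS1, KARS1, MARS1, QARS1 and VARS1, were all in the cytosolic set. For QARS1 the nearest summit lay 502 bp downstream, 2 bp outside the window, with a score of 15.5.

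YY1 scores were high throughout. LARS2 had the highest YY1 score, 10322 with a rank of 99.9%, 37 bp downstream of its 5′ end. FARSA had 8744 and FARS2 6865, both at a rank of 99.9%, while FARSB, the other subunit gene of the cytosolic phenylalanyl enzyme, had 147.2. NARS1 had 3564. CARS2 had the lowest, 20.7. GARS1, MARS1, VARS1 and VARS2 had no YY1 summit.

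Most members with an NRF1 summit and no ZNF143 summit had high NRF1 scores, while GARS1, MARS1 and VARS1 had neither summit. Among the 9 members with an NRF1 summit and no ZNF143 summit the NRF1 score was 17133 at SARS1, 8451 at FARSB, 7109 at MARS2, 2902 at CARS2, 2548 at TARS1 and 1942 at NARS2. It was 815 at VARS2, 146.6 at TARS3 and 52.5 at AARS1. Their median was 2548, against 71.9 among the 21 members with both summits, where the scores ran from 6.57 to 9779. The groups overlapped. At 1942 or above stood 6 of the 9 and 3 of the 21, SARS2, YARS2 and WARS2, with PARS2 just below at 1855.

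Over all genes the order was the other way: the median NRF1 score was 62.4 at genes with a ZNF143 summit and 30.7 at genes without. For YY1 the members followed all genes, with a median of 1037 with ZNF143 (n = 24) and 139.4 without (n = 8), beside 276.9 and 56.1 over all genes. For SP1 the medians of the members were 466.9 with ZNF143 (n = 24) and 545.3 without (n = 9), beside 317.4 and 86.6. These are descriptions of 1 list each, with no test. With the canonical start in place of the gene 5′ end, the NRF1 medians were 1942 without ZNF143 (n = 7) and 77.6 with it (n = 26). The SP1 order of the members turned with the start. Its medians at the canonical start were 152.1 without ZNF143 (n = 8) and 464.6 with it (n = 27), beside 94.96 and 323.7 over all genes.

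**Figure D2:**
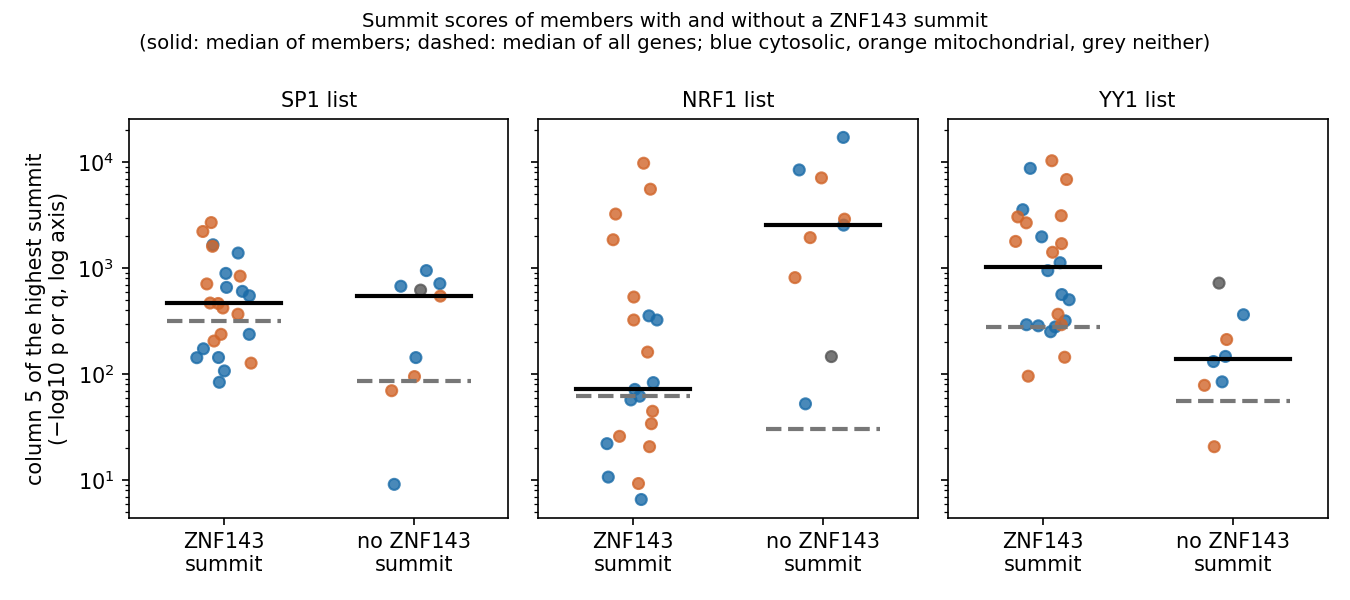
Score of the highest SP1, NRF1 or YY1 summit (−log10 p or q, log axis) at members with and without a ZNF143 summit within 500 bp of the gene 5′ end, 1 point per gene. Solid lines are medians of the members and dashed lines medians of all protein-coding genes. The NRF1 median of the members was 71.9 with ZNF143 and 2548 without, while the dashed lines lie at 62.4 and 30.7.

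The largest difference in count between the cytosolic and the mitochondrial set was in NRF1. All 16 mitochondrial genes had an NRF1 summit, and 13 of 19 cytosolic genes did (68.4%), a difference of −31.6 percentage points, cytosolic minus mitochondrial, with a Newcombe 95% interval of −54.0 to −6.33. At the canonical start the count was 16 of 19 against 16 of 16, −15.8 points with an interval of −37.6 to 6.13 that includes 0. GARS1 and KARS1, the genes that serve both compartments, were among the cytosolic genes without NRF1, and leaving them out gave −23.5 points (−47.3 to 0.348). The level of the NRF1 summits, where present, had a median rank of 84.4% in the cytosolic and 91.4% in the mitochondrial set.

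The other lists differed less between the sets. ZNF143 summits were at 12 of 19 cytosolic genes (63.2%) and 12 of 16 mitochondrial genes (75%), a difference of −11.8 points (−38.5 to 18.4). For SP1 the counts were 17 and 15, −4.28 points (−25.8 to 19.1), and for YY1 16 and 15, −9.54 points (−31.9 to 14.8). At the canonical start the SP1 difference changed its sign, with 19 of 19 cytosolic and 15 of 16 mitochondrial genes, 6.25 points (−11.3 to 28.3). All 4 intervals include 0, and with so few genes they are wide, so a difference within them was not detectable. Median ranks were 67.1% and 65.0% for ZNF143, 95.8% and 94.95% for SP1, and 95.6% and 98.7% for YY1, cytosolic first.

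**Figure D3:**
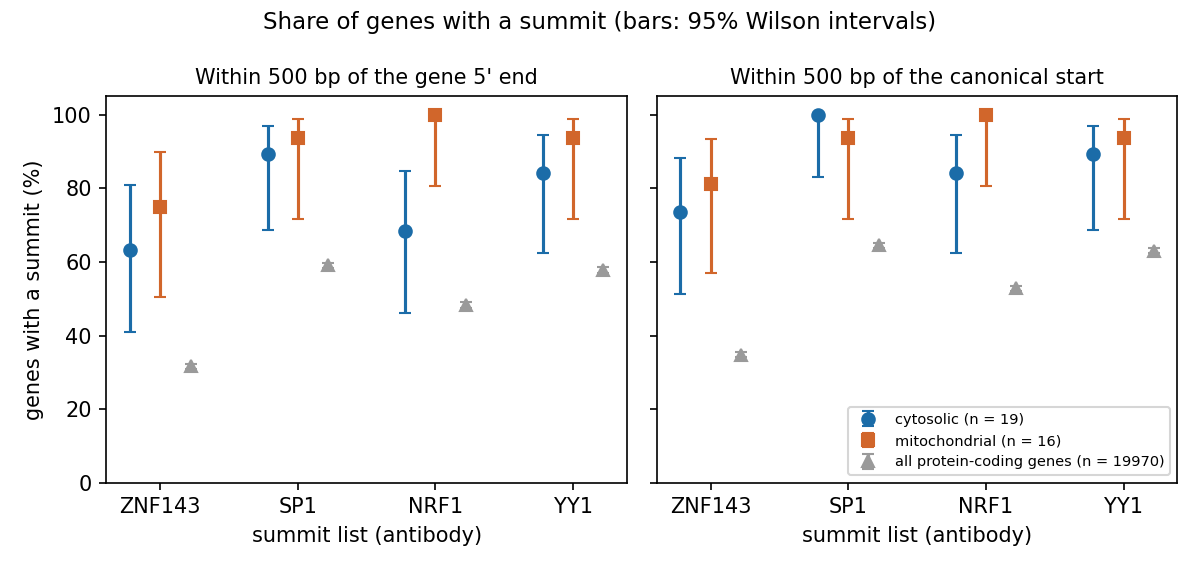
Percentage of genes with a summit within 500 bp of the gene 5′ end (left) or the canonical transcript start (right) in each list, for the 19 cytosolic genes, the 16 mitochondrial genes and the 19970 protein-coding genes; bars are 95% Wilson intervals. Both sets lie above all genes in each list, and the NRF1 gap of 31.6 points between the sets on the left is 15.8 points on the right.

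The same amino acid could be compared in 15 pairs of a cytosolic and a mitochondrial gene, FARS2 being paired with both FARSA and FARSB. All counts and scores of the pairs are those within 500 bp of the gene 5′ end, unless the canonical start is named. A ZNF143 summit was at both genes in 7 pairs, at the cytosolic gene only in 2 (cysteine and asparagine), at the mitochondrial gene only in 4 (alanine, serine, threonine, and FARSB with FARS2) and at neither in 2 (methionine and valine). Within the pairs that had both, the levels differed widely and in either direction: LARS1 had 21734 and LARS2 533, while YARS1 had 2.74 and YARS2 2183, and RARS1 had 32.8 and RARS2 2593. The cytosolic gene was higher in 3 and the mitochondrial gene in 3, the histidyl pair sharing its summit. Some pairs changed with the start used. At the canonical start the cysteine and threonine pairs had ZNF143 at both genes, methionine at MARS1 only and tryptophan at WARS2 only.

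NRF1 summits were at both genes in 12 pairs and at the mitochondrial gene only in 3, those of cysteine, methionine and valine, and at the cytosolic gene only in none. YY1 summits were at both in 13 pairs, and in 8 of these the mitochondrial gene had the higher score, the cytosolic gene in 4. The alanyl genes are an example, with YY1 scores of 131.6 at AARS1 and 1789 at AARS2. SP1 was at both genes in 13 pairs, with the higher score at the mitochondrial gene in 7 and at the cytosolic gene in 5. At the canonical start MARS1 had NRF1, YY1 and SP1 summits, as MARS2 did, and WARS1 had no NRF1 or YY1 summit.

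Where a gene is taken to begin decided several calls. The gene 5′ end of the annotation is that of its outermost transcript, and the start of the Ensembl canonical transcript lay downstream of it at some members, by 14345 bp at GARS1, 12623 bp at MARS1, 7487 bp at CARS2, 1458 bp at WARS1 and 978 bp at KARS1. At the canonical start ZNF143 summits were at 27 members, against 34.8% of all genes, SP1 at 35 against 64.5%, NRF1 at 33 against 52.8%, and YY1 at 33 against 63.1%. All 4 lists were present at 26 members, against 6309 of 19970 genes. None of the 36 was without any summit, and the share of all genes without one at the canonical start was not counted.

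MARS1, the cytosolic methionyl enzyme, showed the largest change. Near its canonical start, at 95 bp upstream, stood a ZNF143 summit with a score of 19340 and a rank of 99.4%, the second highest of any member. SP1 (465), NRF1 (33.0) and YY1 (592.6) summits stood there too. GARS1 had summits of all 4 lists within 70 bp upstream of its canonical start, with a ZNF143 score of 15.3, an SP1 score of 320.1, an NRF1 score of 92.3 and a YY1 score of 320.7. Both genes therefore had summits at the start of the canonical transcript and none at the outermost one.

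Other members moved as well. KARS1 had no NRF1 summit at the gene 5′ end and one with a score of 7316 at 91 bp upstream of the canonical start. YARS1 had a ZNF143 score of 26.6 there, in place of 2.74, and the highest SP1 score of any member at its canonical start, 2855. TARS1 and CARS2 gained a ZNF143 summit, with scores of 7.64 and 6.27. None of the highest summits at the gene 5′ end of WARS1 lay within 500 bp of its canonical start, where only another SP1 summit, with a score of 160.6, was found, so that VARS1, VARS2 and WARS1 were the members with 1 list.

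Positions were also taken from the canonical start. The median position of the highest summit was 48 bp upstream for ZNF143 (all genes 59 bp upstream), 67 bp upstream for SP1 (73), 57 bp upstream for NRF1 (66) and 14 bp upstream for YY1, where all genes had 30 bp downstream. Of the summits, 16 of 27 in the ZNF143 list, 23 of 35 in the SP1 list, 18 of 33 in the NRF1 list and 9 of 33 in the YY1 list lay in the 120 bp upstream of the canonical start. The share of all genes in those 120 bp was not counted. At any distance upstream lay 20 of 27, 31 of 35, 27 of 33 and 17 of 33 in the same order. Over all genes these were 4853 of 6955, 10128 of 12880, 7684 of 10551 and 5520 of 12602. From the gene 5′ end the medians were 28.5 bp downstream (ZNF143), 0 bp (SP1), 14 bp downstream (NRF1) and 78.5 bp downstream (YY1). ZNF143, SP1 and NRF1 summits thus stood mostly upstream of the canonical start and YY1 summits on both sides of it. The same held over all genes.

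ZNF143 and SP1 summits stood close together. The highest summits of both lists were within 50 bp at 18 of the 24 members with both (75%), against 47.7% of all such genes, with a median distance of 23.5 bp against 55 bp. PARS2 had the smallest distance, 4 bp, LARS1 had 6 bp and WARS2 7 bp. SARS2 had the largest, 347 bp. ZNF143 and YY1 were within 50 bp at 11 of 24 (45.8%, all genes 40.1%) and ZNF143 and NRF1 at 7 of 21 (33.3%, all genes 27.8%). SP1 and YY1 were that close at 13 of 32 (40.6%, all genes 31.2%). The share lay below that of all genes for SP1 and NRF1, 5 of 29 (17.2%, all genes 28.3%), and for NRF1 and YY1, 3 of 29 (10.3%, all genes 18.0%). The lists give no error for the position of a summit.

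**Figure D4:**
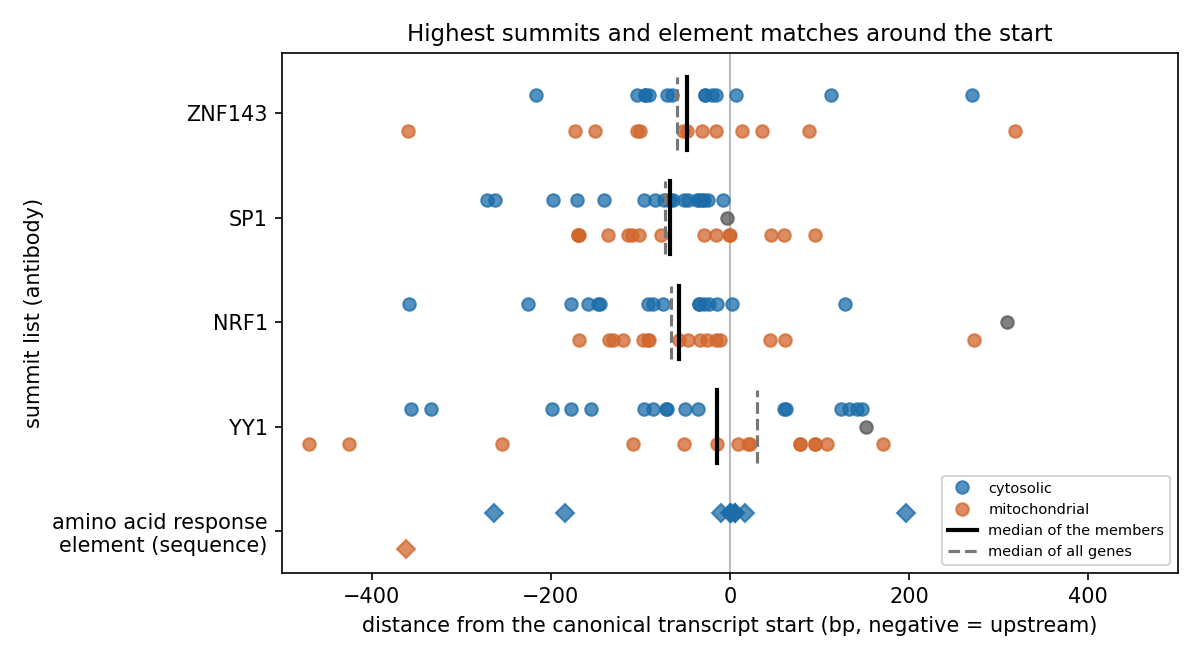
Distance of the highest summit of each list from the canonical transcript start (bp, negative upstream) at each member that has one, with matches to the amino acid response element in the bottom row as diamonds. Blue is cytosolic, orange mitochondrial, grey TARS3, black lines are medians of the members and dashed lines medians of all genes. In the bottom row 6 of the cytosolic matches lie within 20 bp of the start.

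A sequence feature outside the ChIP-seq lists was counted too. The amino acid response element TGATGCAA, read on both strands within 500 bp of the canonical start, was at 9 of 19 cytosolic genes (47.4%), 1 of 16 mitochondrial genes (6.25%) and 304 of 19970 genes (1.52%). At 6 of the 9, CARS1, IARS1, MARS1, NARS1, TARS1 and YARS1, its centre lay within 20 bp of the canonical start. Of all 19970 genes 17 had it there (0.0851%), these 6 included. The 20 bp limit was not among the planned settings. From the gene 5′ end the counts were 6 of 19, 1 of 16 and 1.77% of all genes. A match is a description of these letters, not a measured binding site. All 10 are shown, 30 bases each, with the element in capitals.
AARS1, chr16:70289675-70289704, plus strand: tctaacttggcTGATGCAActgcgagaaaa
CARS1, chr11:3057407-3057436, plus strand: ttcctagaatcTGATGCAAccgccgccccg
EPRS1, chr1:220046293-220046322, plus strand: ccctccctggcTGATGCAAcccacacaggt
IARS1, chr9:92293692-92293721, plus strand: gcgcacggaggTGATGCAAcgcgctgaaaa
MARS1, chr12:57488053-57488082, minus strand: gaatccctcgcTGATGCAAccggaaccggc
NARS1, chr18:57621804-57621833, minus strand: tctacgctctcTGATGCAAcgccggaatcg
TARS1, chr5:33440956-33440985, minus strand: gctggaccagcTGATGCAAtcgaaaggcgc
WARS1, chr14:100375595-100375624, minus strand: tgaggggtggcTGATGCAAtgaccagctaa
YARS1, chr1:32817337-32817366, minus strand: ccgagcccagcTGATGCAAcctggctggac
FARS2, mitochondrial, chr6:5261136-5261165, minus strand: aaggctctccgTGATGCAActgcacgtccc

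The element and the ZNF143 summit were near each other at some of these genes and not at others. At YARS1 the highest ZNF143 summit at the canonical start lay 21 bp from the element, at NARS1 37 bp, at IARS1 94 bp, at MARS1 95 bp and at CARS1 96 bp. It lay 264 bp from the element at TARS1, 314 bp at FARS2 and 414 bp at EPRS1. The distance over all genes was not counted. AARS1 and WARS1 had the element and no ZNF143 summit within 500 bp of the canonical start, and at WARS1 the SP1 summit lay 1 bp from the element. Base composition did not set the members apart by much: the median GC content of the 1001 bp around the gene 5′ end was 57.3%, beside 59.2% over all genes, and the median ratio of observed to expected CpG was 0.722 beside 0.688.

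Neighbouring genes share some of these starts. A protein-coding 5′ end on the opposite strand lay within 1000 bp at 10 of 36 members, 4 cytosolic and 6 mitochondrial, against 13.4% of all genes. EARS2 faces UBFD1 at 10 bp, RARS2 faces ORC3 at 39 bp, AARS1 faces DDX19B at 44 bp, FARS2 faces LYRM4 at 94 bp and SARS2 faces MRPS12, a gene of the mitochondrial ribosome, at 181 bp. The high ZNF143 scores at RARS2 and EARS2 are therefore at starts that 2 genes share, and the summits cannot be assigned to 1 of them. The same holds for 3 other members. WDR25 starts 387 bp downstream of the WARS1 5′ end, where the highest WARS1 summits stood at 356 to 464 bp. TERF2IP starts 870 bp downstream of the KARS1 5′ end, and the KARS1 NRF1 summit of 7316 stood at 887 bp. ING1 starts 867 bp downstream of the CARS2 5′ end, and the ZNF143 summit of 1283 stood at 653 bp. Among the members without such a neighbour, ZNF143 was at 9 of 15 cytosolic (60%) and 7 of 10 mitochondrial genes (70%).

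Groups within the synthetases were small. Of the 7 cytosolic members of the multi-synthetase complex in the list, EPRS1, IARS1, KARS1, LARS1, MARS1, QARS1 and RARS1, 6 had a ZNF143 summit, beside 6 of the other 12 cytosolic genes. At the canonical start these counts were 7 of 7 and 7 of 12. By the fold of the catalytic domain, ZNF143 was at 13 of 18 class I and 10 of 17 class II genes, EPRS1 carrying a domain of each and left out. The median ZNF143 rank was 75.2% in class I and 53.7% in class II.

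VARS1 and VARS2 lie in the major histocompatibility region of chromosome 6, which hg38 repeats on alternate contigs. The 1001 bp around each start had near-identical copies on 5 alternate contigs, at 99.8 to 100% identity over at least 500 bp. Reads that fit several copies are placed by the aligner's rules, so a missing summit at these genes is uncertain. In the ZNF143 list, which keeps alternate contigs, summits lay in 2 of the 5 copies of the VARS2 start, with scores of 24.5 and 9.83, and in none of the copies of VARS1. The SP1, NRF1 and YY1 lists hold no alternate contigs. CARS1 had 1 such copy, with a ZNF143 summit of 2658 in it beside 2743 at the gene. The other 33 members had no copy of that length and identity.

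The genes that work with the synthetases were compared from a list of 20. ZNF143 summits were at 16 of them, SP1 at 19, NRF1 at 16 and YY1 at 18 within 500 bp of the gene 5′ end. The shares were 80%, 95%, 80% and 90% of these genes, beside 31.7%, 59.1%, 48.3% and 57.8% of all genes. Counted from the canonical start they were 19, 20, 19 and 19. Of the 4 genes that make mitochondrial glutaminyl- and formylmethionyl-tRNA, GATB had a ZNF143 score of 20121, close to that of LARS1, and a YY1 score of 9599, with no NRF1 summit, while GATC had a ZNF143 score of 19.4 and QRSL1 5.35. MTFMT, the formyltransferase, had no ZNF143 summit and an NRF1 score of 5691.

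All 4 genes of the selenocysteine route had summits of all 4 lists. SEPSECS, which makes selenocysteine on its tRNA, had a ZNF143 score of 540.6, EEFSEC 31.4, PSTK 10.6 and SECISBP2 4.397. These are scores at the gene 5′ end, and at its canonical start PSTK had a ZNF143 score of 117.4. PSTK, the kinase of this route, had an NRF1 score of 17423 at its gene 5′ end, which lies 26020 bp upstream of its canonical start, and one of 3907 at the canonical start. SARS1, the enzyme that charges the same tRNA with serine, had 17133, its gene 5′ end and canonical start being the same base. The proofreading genes AARSD1, DTD1 and DTD2 had all 4 lists as well, with ZNF143 scores of 1381, 21.7 and 7.23.

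Among the complex scaffolds and the elongation factors the counts turned with the start used. Near the canonical start ZNF143, SP1 and NRF1 summits were at 3 of 3 scaffolds and 6 of 6 elongation factor genes. At the gene 5′ end ZNF143 and NRF1 were at 2 of 3 and 4 of 6. AIMP2 and EEF1E1 had ZNF143 scores of 53.3 and 9.09, and AIMP1 had none within 500 bp of its 5′ end, with one of 32.6 standing 980 bp downstream, near its canonical start. TUFM and TSFM, the mitochondrial elongation factors, had ZNF143 scores of 4926 and 18.1, and EEF1G and EEF1B2 of the cytosol had 2.64 and 2.11. EEF1A1, the factor that carries charged tRNA to the cytosolic ribosome, had no summit of any list at the gene 5′ end, 4555 bp upstream of its canonical start. At the canonical start it had ZNF143 (2024), SP1 (1267) and NRF1 (2381) summits and no YY1 summit within 500 bp. The nearest YY1 summit lay 504 bp upstream of that start, just outside the window, with a score of 116.8.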

How the data were processed

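ChIP-seq of ZNF143, SP1, NRF1 and YY1 was deposited by the authors as 1 list of peak summits per antibody. Column 5 of the deposited lists is, from its layout and values, a −log10 p-value or q-value, and which of these is not given in the sources used here. The submitters' processing notes name cutadapt, Bowtie2, SAMtools 1.16.1, MACS3, bedtools and hg38, without their order or settings. Whether samples were pooled for calling is not given there. A list for the mock samples and signal tracks were not analysed here.

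Summits within 500 bp of each gene's 5′ end in GENCODE 44 were assigned to the gene, and the highest score gave its value, rank and offset (negative is upstream). Motifs were searched on both strands, wholly within 50 bp of the summit. Copies of each start were sought with blastn 2.17.0 (at least 98% identity over 500 bp). Shares carry 95% Wilson intervals and differences Newcombe intervals (Python 3.11.15, numpy 2.4.6, statsmodels 0.14.6), which cover counting error only. Assignment, rank and motif steps were tested on simulated data. No significance test was run, since genes are not replicates.

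Named with values were the 10 members with the highest and the 5 with the lowest ZNF143 score, members without SP1, NRF1 or YY1, members sharing a start, the highest member of each list, GARS1, KARS1, TARS3 and partner genes with ZNF143 or no summit. Sequences under the rule were those at the ZNF143 motif. Other genes and sequences printed were chosen after their values were seen. The members and lists were chosen with earlier results of these data known. Alternatives were 250 and 1000 bp windows, other starts, the top 50% of each list, equal list lengths, motif distance and mismatches, and members left out. Leaving out VARS1 and VARS2, or HARS1 and HARS2, was added after seeing the data.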

Additional observations from a re-analysis of the deposited data

How the results depend on the processing

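Each of the 21 results was recomputed under alternatives, 125 values in all, and 9 moved. With the top 50% of each list by score, ZNF143 summits were at 15 of 36 members in place of 24, and all 4 lists at 13 in place of 21. All 4 lists were also at 13 members within 250 bp. These settings keep fewer summits by construction, and the share of all genes is lower under them too. Of 19970 genes, 3848 had ZNF143 and 3229 had all 4 lists with the top 50%, and 3768 had all 4 lists within 250 bp. In the main setting 6323 genes had ZNF143 and 5620 had all 4 lists. Ranked among the highest summits of all genes in place of all summits of the list, the cytosolic minus mitochondrial difference in median YY1 rank was −17.9 percentage points in place of −3.11, and that in NRF1 rank −17.0 in place of −6.97. The ZNF143 rank difference of 2.17 points turned to −1.09 within 250 bp and −1.32 within 1000 bp, and the SP1 rank difference of 0.877 to −0.984 at the canonical start. With 1 mismatch allowed, the motif lay near the summit at 4 members (ZNF143), 18 (SP1), 12 (NRF1) and 6 (YY1). These were 16.7%, 54.5%, 40% and 18.8% of members with a summit, beside 18.5%, 56.6%, 30.1% and 17.5% of all genes with one. Within 100 bp the YY1 motif was at 6, or 18.8% beside 10.02% of all genes. The other counts stayed within 1.5 times the value reported, and the other differences within their interval or spread. Signs of small differences in count between the sets turned: the SP1 difference was 6.25 points at the canonical start or at any protein-coding transcript start and 0.368 points without GARS1 and KARS1, and the YY1 difference was 0.987 points at any transcript start. The NRF1 difference of −31.6 points had an interval that includes 0 within 250 bp (−28.6, −52.8 to 2.85), within 1000 bp (−21.1, −43.3 to 2.02), at any protein-coding transcript start (−10.5, −31.4 to 10.3), at the canonical start and without GARS1 and KARS1. Its interval excluded 0 with the top 50% of the list (−31.6), equal list lengths (−36.8), no neighbouring 5′ end (−33.3), and without VARS1 and VARS2 (−27.8) or HARS1 and HARS2 (−33.3). No paired analysis was possible because the lists give no value per sample. Depth per sample is unknown, so a missing summit cannot be told apart from one too weak for these lists.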
